A study of Mus musculus with 18 samples.

Results

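The proteasome genes of this series were the 45 protein-coding genes whose symbols run from Psma to Psmg with a number, found by name among 18522 gene rows, with the immunoproteasome genes Psmb8, Psmb9 and Psmb10 left out. The cells were naive CD8+ T cells taken out of spleen and lymph node of wild-type C57BL/6N male mice aged 8 to 12 weeks and activated on plates coated with antibodies against CD3 and CD28. The cells were held in medium restricted for asparagine (Asn restriction) or in complete medium (control) and collected at 4, 24 and 72 h, with 3 libraries in each of 6 groups and 18 in all. The study asked how Asn restriction changes the early and the late phase of activation. The study calls these libraries experimental replicates of one experiment, so the tests measure the spread between libraries within it, which may be technical. All 45 members passed the filter on low counts. By structure, 14 belong to the core particle (7 alpha, 7 beta) and 17 are subunits of the regulatory particle (6 ATPases and 3 other subunits of the base, 8 of the lid), 31 proteasome subunits in all. The other 14 are 3 assembly chaperones of the base (Psmd5, Psmd9, Psmd10), 4 of the core (Psmg1 to Psmg4), 5 genes of other activators, the regulator Psmf1, and Psmc3ip, which shares the name pattern but encodes a meiotic recombination factor and no proteasome subunit.

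The proteasome is the main protease of the cytosol and nucleus for proteins tagged with ubiquitin. Its barrel-shaped core holds the proteolytic sites on the inner faces of the beta rings, and the alpha rings gate the entry. The regulatory particle caps the barrel: the lid removes ubiquitin, and the ring of ATPases in the base unfolds the substrate and threads it in. T cells that leave quiescence make and break down much protein, and peptides cut by proteasomes are what MHC class I molecules present.

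Libraries held 11417641 to 21872456 counts assigned to genes, and a subunit had at least 578 counts in every library, so counting error was small for them. The lowest count of any member was 53, for Psmc3ip. Levels are counts scaled to a common library size after TMM normalization (CPM), and a gene rose or fell where edgeR's quasi-likelihood test gave a Benjamini-Hochberg adjusted p under 0.05 over 14871 genes. The summed CPM of 9 CD8 T cell markers was 1939 to 2736, while Cd4 did not exceed 1.20 CPM at 72 h. Control 72 h replicate 2 stood apart: mitochondrial genes took 0.439% of its counts, against at least 0.741% in the other libraries, and it had the fewest counts. As a check of the labels, Asns, which encodes asparagine synthetase, had 71.5, 72.7 and 64.8 CPM under Asn restriction, against 27.9, 24.2 and 26.1 CPM in control at 4 h. At 72 h Asns was again higher under Asn restriction (356 to 378 CPM, against 234 to 263 CPM in control), while Trib3, another gene of the amino acid response, was lower (115 to 132 CPM, against 139 to 191 CPM). The sample titles mark the media only as ASN and cnl, read here as Asn restriction and control. In bulk RNA, fewer cells that express a gene and less of its RNA per cell cannot be told apart.

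The summed proteasome transcripts lay below control at 4 h in restricted cells and above it at 72 h, and at 24 h they were lower relative to other transcripts. The 31 subunits summed to 4622, 4560 and 4569 CPM under Asn restriction, against 5520, 5579 and 5564 CPM in control at 4 h. At 24 h the sums were 6306, 6288 and 6340 CPM under Asn restriction, against 7538, 7641 and 7574 CPM in control. At 72 h they were 7413, 7377 and 7316 CPM under Asn restriction, against 4625, 4795 and 4659 CPM in control. The media did not overlap at any time, and the ratio of the means was 0.825 at 4 h, 0.832 at 24 h and 1.57 at 72 h. With total counts the ratios were 0.760, 0.897 and 1.46, and with ERCC spike-in totals 0.749, 0.978 and 1.98, with overlap between the media at 24 h. With TMM and with total counts, control 72 h libraries lay below control 24 h libraries, whereas restricted libraries at 72 h lay above those at 24 h. With ERCC totals the control order held, but restricted sums overlapped (6629 to 12121 at 72 h and 7163 to 7705 at 24 h).

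**Figure D1:**
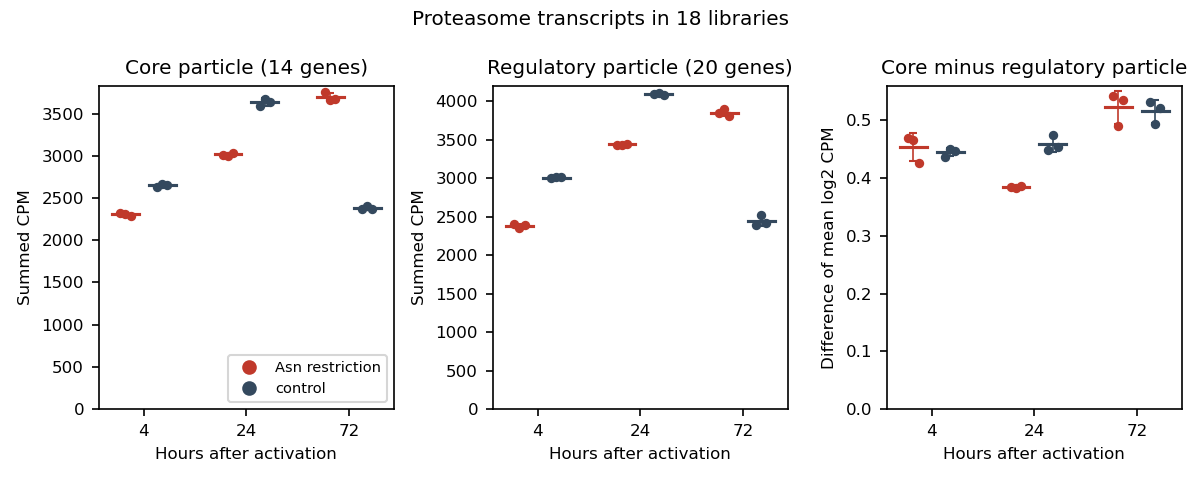
Summed CPM of the core particle genes (left) and of the regulatory particle genes with their chaperones (middle), and the difference of the mean log2 CPM of these sets (right), against hours after activation. Points are libraries, lines are means and bars are SDs of 3 libraries, with Asn restriction in red to the left of control in dark blue. Core sums under Asn restriction were 3665 to 3752 CPM at 72 h, above the 2367 to 2409 CPM of control.

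At 4 h, 26 of the 45 members fell under Asn restriction, 3 rose and 16 did not pass the test, against 22% of all genes tested lower and 23.6% higher. The groups did not overlap for 32 members, against 54.7% of all genes. Their median log2 fold change was -0.20, against 0.02 over all genes tested. In the alpha ring 5 of 7 genes fell, in the beta ring 2 of 7 fell and 1 rose, and of the ATPases 5 of 6 fell. The fall of the ATPase gene Psmc2 did not pass in 4 of 6 fits without 1 library (-0.16 to -0.11, adjusted p = 0.0512 to 0.152). Of the other base subunits 2 of 3 fell, of the lid 5 of 8, of the core chaperones 3 of 4. Psmd1, on chromosome 1 from 86064387 to 86139151 of GRCm38, encodes the large scaffold of the base and changed most. It had 86.9, 87.0 and 84.7 CPM under Asn restriction, against 207, 213 and 222 CPM in control. Every restricted library lay far below every control library (log2 fold change -1.31, standard error 0.05, adjusted p = 3.94e-20). Psmb2, a beta subunit without a proteolytic site on chromosome 4 from 126677630 to 126709714, had 41.0, 41.1 and 38.3 CPM under Asn restriction, against 90.5, 94.4 and 95.7 CPM in control (log2 fold change -1.22, adjusted p = 2.33e-15). Psma5, an alpha ring subunit, had 104, 95.3 and 103 CPM under Asn restriction, against 180.4, 188 and 185 CPM in control (log2 fold change -0.87, adjusted p = 5.55e-15). None of these overlapped between the media.

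The 3 members that rose at 4 h were Psmd10, Psmb6 and Psmf1. Psmd10 encodes gankyrin, a chaperone that holds an ATPase of the base during assembly, and lies on chromosome X from 140948429 to 140956728. It had 48.2, 47.3 and 50.3 CPM under Asn restriction, against 31.3, 31.8 and 29.9 CPM in control (log2 fold change 0.65, adjusted p = 3.95e-08). Psmf1, which encodes a regulator that inhibits the core particle in vitro, had 41.8, 43.9 and 38.9 CPM under Asn restriction, against 37.5, 36.1 and 36.6 CPM in control. That difference was near the threshold (log2 fold change 0.18, adjusted p = 0.0438) and did not pass without any 1 of 5 of the 6 libraries, all but Asn restriction 4 h replicate 3 (0.15 to 0.20, adjusted p = 0.0505 to 0.153). With libraries scaled by total counts, 31 members fell and 1 rose at 4 h. With ERCC spike-in totals as library sizes, 16 fell and 0 rose, and the median of all genes moved by -0.14. Of all genes called, 30.7% were then higher, against 51.7% with TMM and 37.7% with total counts.

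At 24 h, 34 members fell under Asn restriction, 3 rose and 8 did not pass, against 28% of all genes lower and 27.5% higher. The media did not overlap for 41 members, against 61.3% of all genes, and the median log2 fold change was -0.29, against 0.01 over all genes. All 8 lid genes and all 4 core chaperone genes fell, as did 6 of 7 alpha and 5 of 7 beta genes. The ATPases were mixed, with 3 lower, 1 higher and 2 that did not pass. Psmb2 fell most among proteasome subunits, with 61.5, 60.8 and 65.0 CPM under Asn restriction, against 99.6, 113 and 106 CPM in control (log2 fold change -0.77, standard error 0.07, adjusted p = 2.17e-11). Psme3 encodes an activator of nuclear proteasomes that needs no ubiquitin tag and lies on chromosome 11 from 101316213 to 101323537. It had 357, 370.4 and 377 CPM under Asn restriction, against 529.5, 547 and 528 CPM in control (log2 fold change -0.54, adjusted p = 4.70e-13). Psmc3ip, no proteasome subunit, had the largest fall of all, with 14.3, 15.9 and 14.6 CPM under Asn restriction, against 27.6, 24.3 and 28.6 CPM in control (log2 fold change -0.85, adjusted p = 6.59e-07).

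Against these, Psmf1, Psmc2 and Psmd10 rose at 24 h. Psmf1 had 44.8, 49.6 and 45.5 CPM under Asn restriction, against 37.9, 34.0 and 35.9 CPM in control (log2 fold change 0.37, adjusted p = 2.87e-05). Psmc2, an ATPase of the base, had 221, 222 and 206 CPM under Asn restriction, against 187, 181 and 191 CPM in control (log2 fold change 0.22, adjusted p = 0.00117). It was the only ATPase called higher at 24 h, and with ERCC totals it did not pass (0.45, adjusted p = 0.0598). Psmd10 was at 0.21 (adjusted p = 0.0200) and did not pass without Asn restriction 24 h replicate 2 (0.19, adjusted p = 0.0683) or without control 24 h replicate 1 (0.14, adjusted p = 0.151). The count of falls at 24 h depended on the scaling of libraries. Total counts gave 27 lower and 4 higher, while ERCC totals gave 2 lower and 1 higher, a members' median of -0.06 and a median of 0.25 over all genes. Among called genes 77.5% were higher with ERCC totals and 60.1% with total counts, against 49.5% with TMM. The members were thus lower relative to the other transcripts of the same libraries, while a fall relative to spike-in RNA passed for 2 of them.

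At 72 h, 36 members rose under Asn restriction, 2 fell and 7 did not pass, against 25.4% of all genes higher and 23.8% lower. The media did not overlap for 39 members, against 53.6% of all genes. The median log2 fold change was 0.53, against -0.01 over all genes. Of the 31 proteasome subunits 28 rose and 0 fell, with a median log2 fold change of 0.78. All 7 alpha genes, all 6 ATPases, all 3 other base subunits and all 3 base chaperones rose, with 5 of 7 beta and 7 of 8 lid genes. Among the 7408 genes within the members' range of mean CPM, 39.5% rose. At least 2-fold rises were found for 9 members: Psma3, Psma4, Psma5, Psmc1, Psmd1, Psmd6, Psmd12, Psmd13 and Psme3. The share of all genes at that limit was not counted. With total counts 33 members rose and 3 fell, and with ERCC totals 37 rose and 0 fell. Among called genes 84.9% were higher with ERCC totals and 40.1% with total counts, against 51.6% with TMM. Without control 72 h replicate 2, 38 rose and 2 fell.

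Psmd6, a lid subunit on chromosome 14 from 14112174 to 14120984, rose most. It had 164, 169 and 168 CPM under Asn restriction, against 72.1, 65.6 and 65.6 CPM in control (log2 fold change 1.30, standard error 0.05, adjusted p = 8.46e-19). Psme3 had 299.8, 292 and 297 CPM under Asn restriction, against 123, 122 and 124 CPM in control (log2 fold change 1.27, adjusted p = 2.62e-21). Psma3, an alpha ring subunit on chromosome 12 from 70974621 to 70996347, had 335, 335 and 311 CPM under Asn restriction, against 133, 137 and 139 CPM in control (log2 fold change 1.26, adjusted p = 1.76e-18). Every restricted library lay far above every control library for these genes. The ubiquitin receptor gene Psmd4 had 211, 203 and 201 CPM under Asn restriction, against 141, 148 and 137 CPM in control (log2 fold change 0.53, adjusted p = 1.22e-09). Psmd14, which encodes the deubiquitinase of the lid, had 189.7, 198 and 193 CPM under Asn restriction, against 138, 146 and 137 CPM in control (log2 fold change 0.47, adjusted p = 5.89e-10). Psmd14 had fallen at both earlier times (-0.39 and -0.33), whereas Psmd4 passed at neither (-0.09 and 0.01). These calls depended on the settings. Psmd4 passed as lower at 4 h with total counts (-0.21, adjusted p = 0.00221) and with only the compared groups fitted (-0.11, adjusted p = 0.0246). The 24 h fall of Psmd14 did not pass with ERCC totals (-0.10, adjusted p = 0.728).

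The 7 members that did not pass at 72 h were Psmb1, Psmb6, Psmd8, Psme2b, Psmg2, Psmg4 and Psmc3ip. Psmb1, a beta subunit without a proteolytic site, had 291, 279 and 302 CPM under Asn restriction, against 286, 287 and 297 CPM in control, with overlapping groups (log2 fold change 0.00, standard error 0.04). Psmd8, a lid subunit, had 277, 262 and 285 CPM under Asn restriction, against 249, 271 and 249 CPM in control (log2 fold change 0.10, adjusted p = 0.0676). It passed without control 72 h replicate 2 (0.14, adjusted p = 0.00739) and without Asn restriction 72 h replicate 2 (0.14, adjusted p = 0.0288). Psmc3ip was at 0.28 (adjusted p = 0.0734) and passed without control 72 h replicate 1 (0.38, adjusted p = 0.0337). The 2 genes that fell were Psmf1 and Psme2. Psmf1 had 37.0, 37.9 and 39.0 CPM under Asn restriction, against 42.9, 45.7 and 45.2 CPM in control (log2 fold change -0.23, adjusted p = 0.00738). Psme2, which with Psme1 forms an activator ring induced by interferon, had 237, 237 and 227 CPM under Asn restriction, against 258, 296 and 264 CPM in control (log2 fold change -0.22, adjusted p = 3.00e-04). Reads of Psme2 can be shared with Psme2b, a near copy on chromosome 11, so the split between them is uncertain. With ERCC totals both Psmf1 (0.10) and Psme2 (0.11) changed sign at 72 h and did not pass.

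Marker lists also differed between the media. At 4 h the CD8 T cell markers summed to 2297 to 2376 CPM under Asn restriction, against 2676 to 2736 CPM in control. Cd8a was at 93.3 to 99.3 CPM under Asn restriction and 256 to 269 CPM in control. Trac (721 to 745 and 593 to 605 CPM) and Cd5 (332 to 351 and 303 to 316 CPM) were instead higher. At 24 h the list summed to 2039 to 2061 CPM under Asn restriction, against 2231 to 2249 CPM in control. There Cd5 (250 to 273 and 481 to 498 CPM), Thy1 and Cd2 were lower. Cd3d, Cd3e (194 to 201 and 149 to 158 CPM), Cd3g and Trac (249 to 278 and 212 to 215 CPM) were instead higher, and Cd8a and Cd8b1 overlapped. At 72 h it summed to 1939 to 1984 CPM, against 2163 to 2193 CPM, while Thy1 (695 to 746 and 661 to 685 CPM), Cd2 (271 to 280 and 208 to 246 CPM) and Cd5 were higher. The NK list summed to 166 to 183 CPM under Asn restriction, against 239 to 257 CPM in control at 4 h. At 24 h it was instead higher (192 to 202 and 149 to 158 CPM), with Eomes at 93.0 to 96.0 and 57.5 to 61.4 CPM. The myeloid and dendritic list was higher under Asn restriction at 4 h (14.7 to 16.8 and 10.6 to 14.2 CPM) and 24 h (3.77 to 4.65 and 2.01 to 2.25 CPM). At 24 h the B cell list summed to 47.5 to 53.2 CPM under Asn restriction, against 87.2 to 98.0 CPM in control, mostly Ighm, and the CD4 and regulatory T cell list to 26.8 to 33.2 CPM under Asn restriction, against 6.04 to 8.11 CPM in control, mostly Zbtb7b. At 72 h the list of 3 CD4 and regulatory T cell markers summed to 55.7 to 65.2 CPM under Asn restriction, against 116 to 129 CPM in control, nearly all of it Zbtb7b. Cd4 itself was at 0.208 to 0.476 CPM under Asn restriction and 0.779 to 1.20 CPM in control. The 4 NK markers summed to 216 to 231 CPM under Asn restriction, against 256 to 318 CPM in control, nearly all from Nkg7, which CD8 T cells also express, while Ncr1 was at 0 in both. The 7 B cell markers summed to 29.5 to 36.8 CPM under Asn restriction, against 40.5 to 41.3 CPM in control, mostly Ighm, with Ms4a1 and Pax5 at 0 under Asn restriction. The 7 myeloid and dendritic markers summed to at most 0.883 CPM in each library at 72 h, and the erythroid markers in the table were at 0. The part of these lists in the proteasome results was not tested.

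**Figure D2:**
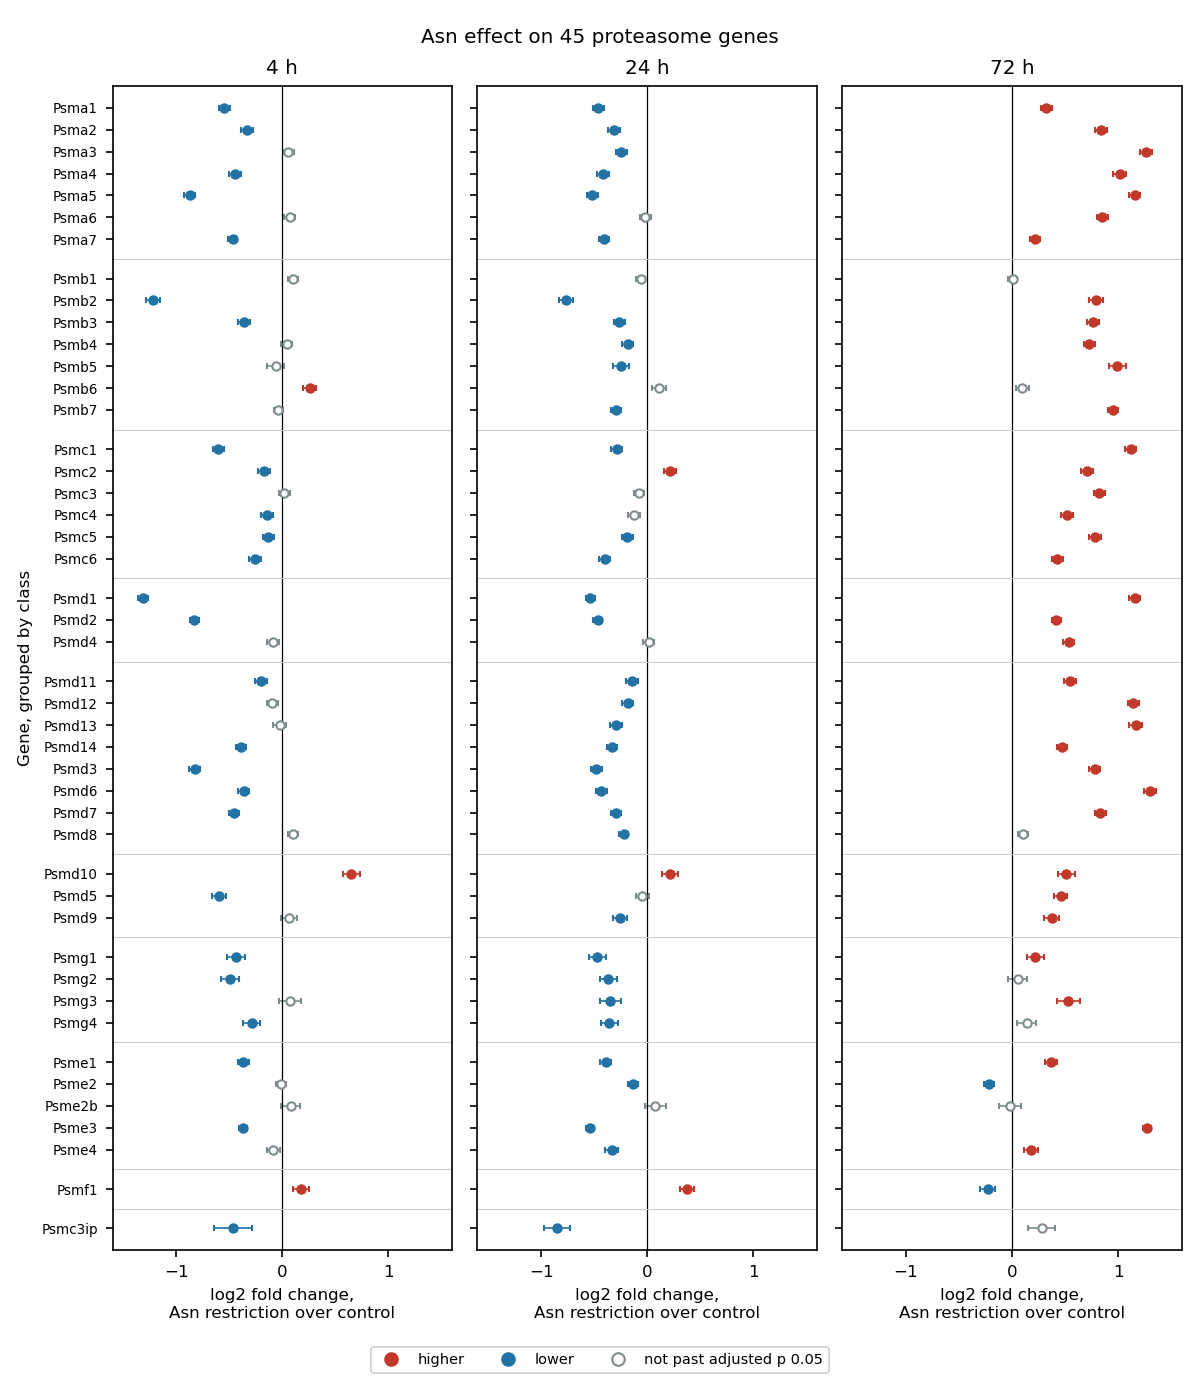
Log2 fold change of Asn restriction over control for each of the 45 members at 4, 24 and 72 h, with rows grouped by class from the alpha ring at the top to Psmc3ip at the bottom. Points are estimates and bars are standard errors of the edgeR fit, red for members called higher, blue for lower and open grey for those that did not pass. The 28 subunits called at 72 h all lie to the right of 0, while 24 subunits called at 24 h lie to the left and Psmc2 to the right.

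The change of the Asn effect over time was tested as a contrast of the same fit. From 24 to 72 h the effect increased in 40 members, against 29.5% of all genes, decreased in 1, against 27.7%, and did not pass in 4 (Psmb1, Psmb6, Psme2, Psme2b). The members' median difference was 0.87 on the log2 scale, against -0.04 over all genes. Psme3 (1.81, adjusted p = 5.39e-22), Psmd6 (1.73, adjusted p = 7.08e-19) and Psmd1 (1.69, adjusted p = 1.06e-19) changed most, and Psmf1 alone went the other way (-0.60, adjusted p = 4.15e-06). In all, 20 members, 17 of them subunits, were lower at both 4 and 24 h and higher at 72 h, a pattern shared by 7.63% of all genes tested. With total counts it held for 17 members and 6.72% of all genes, and with ERCC totals for 1 member and 1.73% of all genes. With TMM, Psmd10 was the 1 member higher at every time, and the share of all genes with that pattern was not counted. With ERCC totals Psmd10 passed at neither 4 h (0.51, adjusted p = 0.0579) nor 24 h (0.44, adjusted p = 0.0765), though the 24 h estimate was larger than with TMM. From 4 to 24 h the effect increased in 8 members, against 18.5% of all genes, and decreased in 11, against 17.8%. Psmd1 had the largest increase (0.78, adjusted p = 7.49e-11), followed by the base chaperone Psmd5 (0.55, adjusted p = 1.62e-05) and Psmb2 (0.45, adjusted p = 3.66e-04). Psmd5 had 25.9, 26.3 and 27.7 CPM under Asn restriction, against 40.2, 37.9 and 42.1 CPM in control at 4 h, while its levels overlapped at 24 h. Psmd10 (-0.44), the core chaperone Psmg3 (-0.42) and Psmd8 (-0.33) had the largest decreases from 4 to 24 h. The decrease of Psmg3 did not pass without control 4 h replicate 3 (-0.29, adjusted p = 0.116) or without control 24 h replicate 3 (-0.39, adjusted p = 0.0514). With total counts, 21 members increased and 0 decreased from 4 to 24 h, and with ERCC totals 6 increased and 0 decreased, so the balance of directions in this early contrast depended on the scaling. With ERCC totals Psma3 (0.07), Psmb7 (0.12), Psmd8 (0.05) and Psme3 (0.20) changed sign in it, and Psme3 also did with total counts (0.06). From 24 to 72 h, total counts gave 36 increases and 4 decreases, and ERCC totals 32 and 0.

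Within each medium the members had different courses. From 4 to 24 h, 36 members rose under Asn restriction and 37 in control, against 34.9% of all genes in either medium, and 34 of them rose in both media. The 4 that fell in each medium, against 30.9% of all genes under Asn restriction and 34.7% in control, were Psme1, Psme2, Psme2b and Psme3, which are 4 of the 5 genes of other activators. With ERCC totals 0 members fell under Asn restriction and 2 in control. Psmc3ip had the largest rises (log2 1.95 under Asn restriction and 2.33 in control). From 24 to 72 h, 25 members rose and 13 fell under Asn restriction, against 35.3% and 35.5% of all genes. In control over the same time 3 rose and 38 fell, against 35.7% and 35.1% of all genes. The direction under Asn restriction depended on the scaling, with 13 rises and 18 falls by total counts and 11 and 2 by ERCC totals, whereas control had 3 and 37 by total counts and 0 and 34 by ERCC totals. The median was 0.22 under Asn restriction and -0.78 in control on the log2 scale. With TMM, of the 38 members that fell in control, 20 rose under Asn restriction, 12 fell and 6 did not pass. With the other scalings fewer than these 20 rose (13 and 11), and the share of all genes with such joint courses was not counted. Psmd1 changed by 0.23 (adjusted p = 4.64e-05) under Asn restriction and -1.45 (adjusted p = 3.13e-22) in control, and Psme3 by -0.31 and -2.12. The members that did not fall in control were Psmb1, Psmb6, Psmd5, Psmd8, Psmd10, Psme4 and Psmf1. The 3 subunits without a call at 72 h, Psmb1, Psmb6 and Psmd8, were among them. The highest group mean was in control 24 h for 25 members, in Asn restriction 72 h for 13, in control 4 h for 4, in Asn restriction 24 h for 2 and in Asn restriction 4 h for 1. Shares of all genes were not counted for these highest groups, nor for rises in both media from 4 to 24 h.

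**Figure D3:**
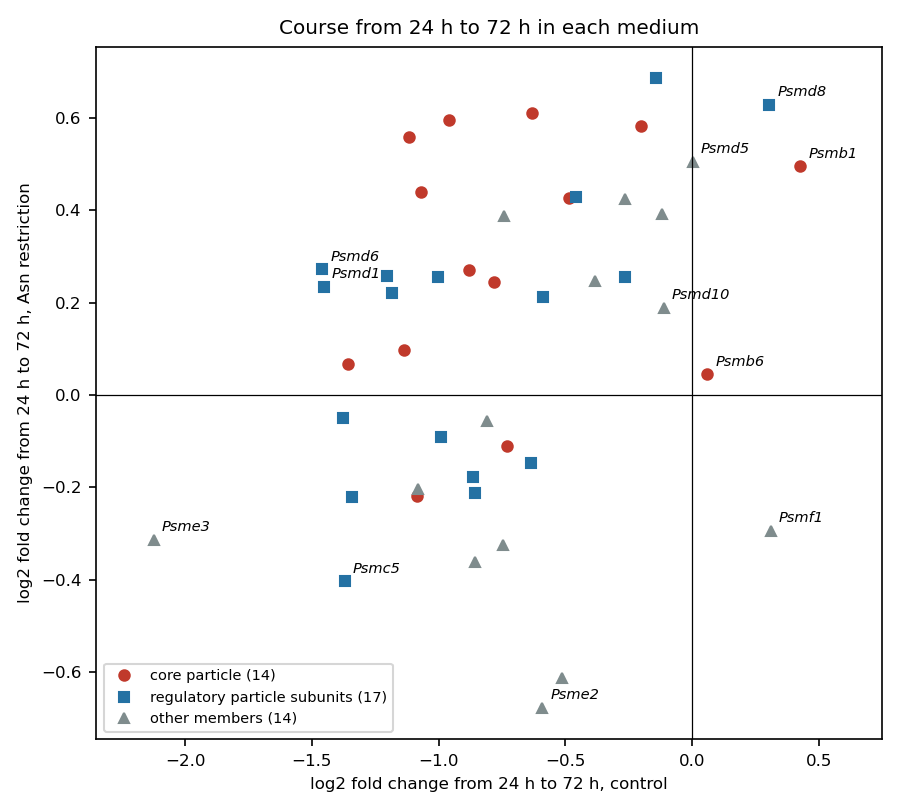
Log2 fold change from 24 to 72 h under Asn restriction (vertical) against that in control (horizontal), from separate libraries, with 1 point for each of the 45 members. Circles are core subunits, squares are regulatory particle subunits and triangles are other members. Most points lie left of 0, and Psmb1 and Psmd8 lie to the right with rises in both media.

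Core and regulatory particle genes moved in the same direction at each time. At 72 h the 14 core genes had a median log2 fold change of 0.81 (12 rose) and the 20 Psmc and Psmd genes without Psmc3ip one of 0.62 (19 rose). At 24 h the medians were -0.28 and -0.24, and at 4 h -0.20 and -0.19. Core sums were 3752, 3665 and 3677 CPM under Asn restriction, against 2367, 2409 and 2372 CPM in control at 72 h. Regulatory particle sums were 3844, 3898 and 3813 CPM under Asn restriction, against 2390.4, 2517 and 2422 CPM in control. Neither sum overlapped between the media. The difference between the mean log2 CPM of the core and of the regulatory particle, in which library scaling cancels, was 0.523 ± 0.028 under Asn restriction and 0.516 ± 0.019 in control at 72 h (SD, n = 3 each), with overlapping libraries. At 4 h it was 0.454 ± 0.024 under Asn restriction and 0.445 ± 0.0072 in control. At 24 h it was 0.385 ± 0.0016 under Asn restriction and 0.459 ± 0.014 in control, and the libraries did not overlap. No test was run on these values. Without the base chaperones the gap between the media was 0.066 at 4 h, -0.041 at 24 h and -0.038 at 72 h, against 0.009, -0.07 and 0.007 with them, so its sign at 72 h depended on them. With Psmc3ip kept the 24 h gap was -0.045.

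Inside the core, the rings shifted against each other. The alpha minus beta difference of mean log2 CPM was 0.208, 0.158 and 0.173 under Asn restriction, against 0.367, 0.338 and 0.372 in control at 4 h. At 72 h it was 0.0577, 0.168 and 0.0983 under Asn restriction, against -0.0571, -0.177 and -0.0175 in control. The restricted libraries were thus below control at 4 h and above it at 72 h without overlap, and at 24 h the groups overlapped. The evenness of transcript levels among the subunits also differed between the media, for the core at each time and for the regulatory particle at 4 and 72 h. Levels between genes were compared per kb of the transcript length given in the deposited table. The coefficient of variation over the 14 core subunits was 40.5 ± 0.96% under Asn restriction and 58.1 ± 5.4% in control at 72 h (SD, n = 3 each). Over the 17 regulatory particle subunits it was 30.2 ± 0.30% under Asn restriction and 45.6 ± 1.6% in control. At 4 h the core values were 54.9 ± 1.9% under Asn restriction and 43.2 ± 1.8% in control. At 24 h they were 44.7 ± 2.4% and 38.5 ± 1.6%, while those of the regulatory particle overlapped (29.2 ± 1.4% and 29.6 ± 0.68%). The core values of control at 72 h were 56.5, 64.1 and 53.7%, the highest in replicate 2, and overlapped those of Asn restriction at 4 h. The highest core subunit exceeded the lowest 3.33-fold under Asn restriction (Psmb4 over Psmb2) and 5.64-fold in control (Psmb6 over Psma3) at 72 h. With the length of the principal transcript instead, these ratios were 3.33 and 6.82. With that length and group means, the core coefficients of variation at 4 h were closer, 58.2% under Asn restriction and 52.9% in control. They were 52.1 and 49.5% at 24 h and 46.0 and 61.5% at 72 h.

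The 3 catalytic subunits did not follow one course. Psmb5 carries the chymotrypsin-like site, Psmb6 the caspase-like site and Psmb7 the trypsin-like site. Psmb5, on chromosome 14 from 54614119 to 54618022, had 118, 107 and 122 CPM under Asn restriction, against 53.0, 71.5 and 51.8 CPM in control at 72 h (log2 fold change 0.99, standard error 0.08, adjusted p = 5.03e-12). Psmb7, on chromosome 2 from 38588036 to 38644087, had 407, 389 and 391 CPM under Asn restriction, against 207, 209 and 200.4 CPM in control (log2 fold change 0.95, adjusted p = 5.61e-17). Psmb6, on chromosome 11 from 70525367 to 70527858, had 294, 279 and 262 CPM under Asn restriction, against 250.3, 301 and 231 CPM in control at 72 h (log2 fold change 0.10, adjusted p = 0.222). The high control value was that of replicate 2, and without that library Psmb6 passed (0.21, adjusted p = 4.19e-04), still at a smaller estimate than Psmb5 and Psmb7. At 4 h Psmb6 rose, with 226, 231 and 234 CPM under Asn restriction, against 197, 201 and 181 CPM in control (log2 fold change 0.26, adjusted p = 0.00128), though not with total counts (0.14, adjusted p = 0.0801). Psmb5 (-0.06) and Psmb7 (-0.04) did not pass at 4 h. At 24 h Psmb5 (-0.24, adjusted p = 0.00627) and Psmb7 (-0.30, adjusted p = 2.25e-06) fell, and Psmb6 was at 0.11 (adjusted p = 0.138). Psmb5 did not pass at 24 h with total counts (-0.14, adjusted p = 0.120) or ERCC totals (-0.01), nor did Psmb7 with ERCC totals (-0.06), whereas with total counts Psmb6 passed as higher (0.22, adjusted p = 0.00397) and, at 4 h, Psmb7 as lower (-0.16, adjusted p = 0.00726). The difference between the genes was not tested.

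Their immunoproteasome counterparts replace them when interferon signals. At 4 h Psmb9 rose (0.51), as Psmb6 did, though with ERCC totals it did not pass (0.38), while Psmb8 (-0.92) and Psmb10 (-0.49) fell. At 24 h Psmb8 (-0.59), Psmb9 (-0.20) and Psmb10 (-0.44) fell, which with ERCC totals did not pass for any of them. Psmb8, the counterpart of Psmb5, had 263, 249 and 253 CPM under Asn restriction, against 328, 401 and 309 CPM in control at 72 h (log2 fold change -0.44, adjusted p = 1.48e-06). Psmb9, the counterpart of Psmb6, had 75.2, 72.3 and 81.8 CPM under Asn restriction, against 107, 113 and 100.03 CPM in control (-0.48, adjusted p = 8.01e-08). Psmb10, the counterpart of Psmb7, had 46.3, 42.6 and 48.8 CPM under Asn restriction, against 19.3, 29.3 and 20.6 CPM in control (1.01, adjusted p = 2.89e-09). So at 72 h Psmb10 rose as Psmb7 did, whereas Psmb8 fell while Psmb5 rose. With ERCC totals the falls of Psmb8 (-0.12) and Psmb9 (-0.16) did not pass.

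**Figure D4:**
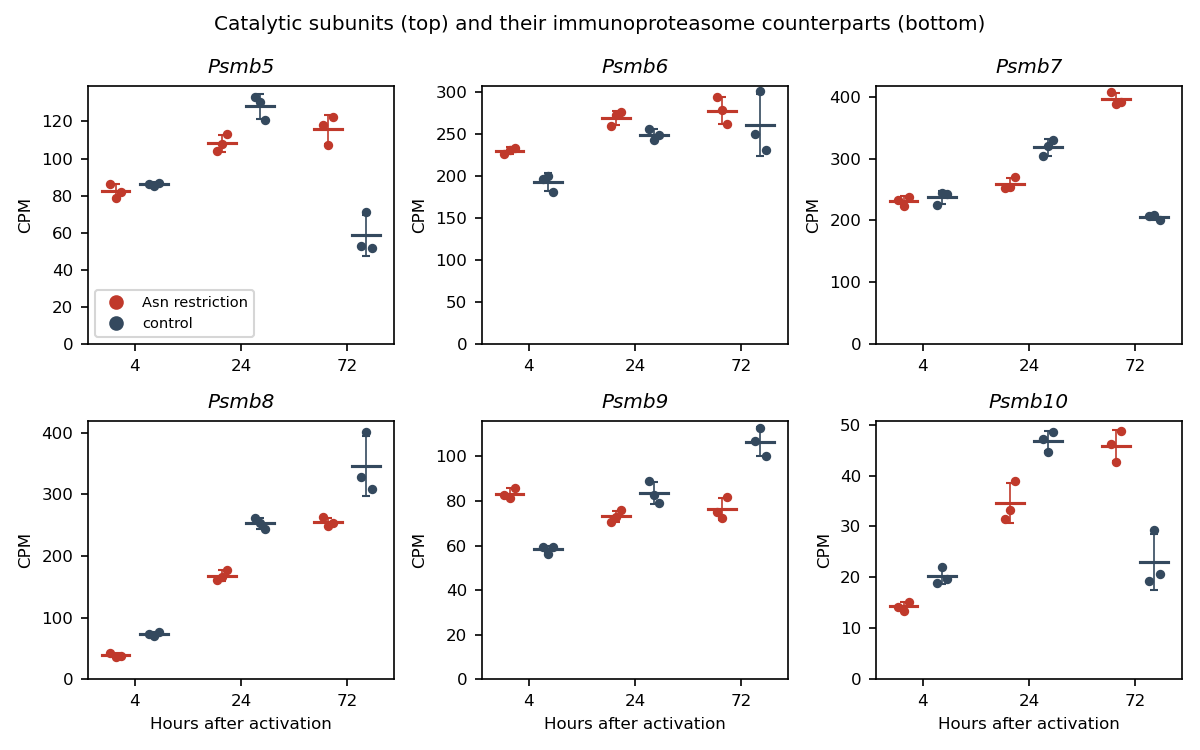
CPM of Psmb5, Psmb6 and Psmb7 (top) and of Psmb8, Psmb9 and Psmb10 (bottom) against hours after activation. Points are libraries, lines are means and bars are SDs of 3 libraries, with Asn restriction in red to the left of control in dark blue. At 72 h the groups are apart for Psmb5 and Psmb7 and overlap for Psmb6.

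Proteasome genes are known targets of Nfe2l1, which binds antioxidant response elements, so promoters of the members were searched for the core of that element. RefSeq promoters of GRCm38.p6, 250 bases before to 50 after a start, were matched for 38 members (41 promoters) and not for Psmb1, Psmb2, Psmb7, Psmc3, Psmd3, Psmd7 and Psmg2. The letters TGACNNNGC, on either strand, were found in 14.6% of the members' promoters, against 12.4% of all 32851. The CCAAT box was found in 31.7% of the members' promoters, against 37.4% of all, and the amino acid response element in the form TGATGNAA in 2.44%, against 3.97%. TGACNNNGC can overlap AP-1 and cAMP response elements. The members' shares were near those of all promoters. Psmb5 and Psmb6 both hold a match near the start, as do Psmd9 (at -31) and Psme4 (at -7). At 72 h Psmb5 was called higher and Psmb6 was not, and the difference between them was not tested. Psmb5 and Psmb6 are shown on the strand of the gene, the match in capitals (chr14:54618019-54618057, minus strand, and chr11:70525333-70525356, plus strand).
Psmb5: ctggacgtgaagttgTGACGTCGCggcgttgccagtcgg
Psmb6: gcggactaaagagagTGACGGAGC
The match starts 47 bases before the start of Psmb5 and 9 bases before that of Psmb6.

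Other genes of the pathway were described from lists of regulators, partners and substrate handling. Nfe2l1, the transcription factor that raises proteasome genes when proteolysis is impaired, had 499.6, 483 and 480.2 CPM under Asn restriction, against 323, 344 and 344 CPM in control at 4 h (log2 fold change 0.53, adjusted p = 1.44e-11). At 24 h it had 421, 455 and 454 CPM under Asn restriction, against 191, 204 and 205 CPM in control (1.15, adjusted p = 2.34e-19). At 72 h it had 413, 433 and 405 CPM under Asn restriction, against 596, 578 and 578 CPM in control (-0.49, adjusted p = 8.65e-11). Its transcript was thus higher under Asn restriction at 4 and 24 h and lower at 72 h, though with ERCC totals neither the 4 h rise (0.39, adjusted p = 0.143) nor the 72 h fall (-0.14, adjusted p = 0.621) passed. Nfe2l2, which encodes NRF2, had 56.8, 57.2 and 46.9 CPM under Asn restriction, against 26.8, 26.6 and 27.0 CPM in control at 24 h (adjusted p = 4.99e-12). It rose likewise at 4 h (1.03) and fell at 72 h (-0.28, adjusted p = 0.00349), a fall that turned to 0.07 (adjusted p = 0.827) with ERCC totals. Ddi2, the protease that releases active Nfe2l1, fell at 4 h (-0.28) and rose at 24 h (0.18) and 72 h (0.24), where it did not pass at 72 h with total counts (0.13) nor at 4 and 24 h with ERCC totals (-0.42 and 0.41). Of the 8 regulators of proteasome genes that were tested, 5 rose and 2 fell at 24 h, against 27.5% of all genes higher and 28% lower. The rises numbered 5 and the falls 0 at 24 h with total counts and with ERCC totals. At 72 h 3 rose and 4 fell, against 25.4% and 23.8% of all genes, or 3 and 0 with ERCC totals.

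Partners of the particle include its assembly factors and receptors. Of 11 tested partners and chaperones, 7 rose and 1 fell at 72 h, with a median of 0.23, against 25.4% of all genes higher and 23.8% lower. With total counts 5 rose and 2 fell (median 0.12), and with ERCC totals 8 rose and 0 fell. At 24 h 3 rose and 4 fell, against 27.5% of all genes higher and 28% lower. Pomp, the maturation factor of the core, had 179, 180.4 and 177 CPM under Asn restriction, against 137, 123 and 129.7 CPM in control at 72 h (log2 fold change 0.46, adjusted p = 4.00e-09), and had fallen at 4 h (-0.17) and 24 h (-0.42), falls that did not pass with ERCC totals. The ubiquitin receptor gene Adrm1 rose at 72 h (0.53, adjusted p = 8.93e-08) and did not pass before. Usp14, a deubiquitinase that binds the base, had 93.6, 87.6 and 82.9 CPM under Asn restriction, against 54.0, 49.98 and 56.3 CPM in control at 72 h (0.72, adjusted p = 6.41e-11). Of 6 shuttle factors, which bring substrates, 4 fell and 2 rose at 24 h, but 0 fell and 1 rose with ERCC totals. At 72 h 2 shuttle factors rose and 0 fell. Of 6 genes of ubiquitin and its activating enzymes, 1 rose and 2 fell at 72 h, with a median of -0.07 (0.27 with ERCC totals). Of the 6 genes of VCP and its cofactors, which extract substrates, 2 rose and 2 fell at 72 h.

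**Figure D5:**
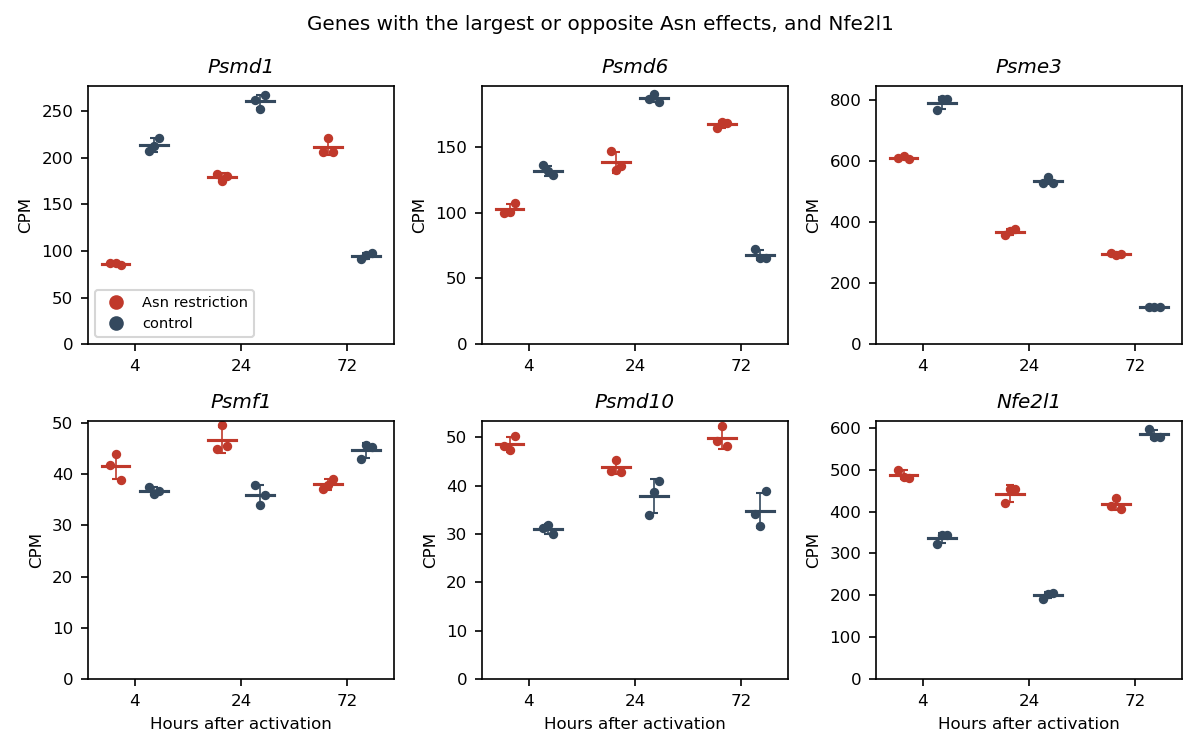
CPM of Psmd1, Psmd6, Psme3, Psmf1, Psmd10 and Nfe2l1 against hours after activation. Points are libraries, lines are means and bars are SDs of 3 libraries, with Asn restriction in red to the left of control in dark blue. Psmd1, Psmd6 and Psme3 are lower under Asn restriction at 4 and 24 h and higher at 72 h, whereas Psmf1 and Nfe2l1 have the opposite order, which for Psmf1 at 72 h changed sign with ERCC totals (0.10). With ERCC totals, Psmd1, Psmd6 and Psme3 at 24 h and Psmd6 and Psmf1 at 4 h did not pass. Neither did Psmd10 at 4 and 24 h nor Nfe2l1 at 4 and 72 h.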

How the data were processed

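The authors deposited whole-number raw counts per gene for the 18 libraries. Their notes name Trim Galore 0.60, STAR 2.7, RSEM 1.31 and the builds hg19 and mm10; the settings are not given in the sources used here. The same table holds 18 columns of normalized values and the authors' group means, fold changes and adjusted p-values, none of which was used. The 63 ERCC rows stayed out of library sizes and tests. In R 4.3.3, edgeR 4.0.16 applied filterByExpr and TMM scaling and fitted its quasi-likelihood model with 6 group means (12 residual degrees of freedom). Benjamini-Hochberg adjustment ran over 14871 genes with a threshold of 0.05, and the standard error is the log2 fold change divided by the square root of F. Mean log2 CPM used a prior count of 2. Positions are from GENCODE M21. The method was tested on simulated data. Members and lists were chosen with earlier results of these data known. Named genes are the 3 largest rises and falls per contrast of Asn restriction among called members, Psmb5, Psmb6, Psmb7, Psmd4, Psmd14, members called against their class, and 9 pathway genes; Psmb1 and the examples of the course within a medium were chosen after their values were seen. Alternatives were other scalings and tests (DESeq2 1.42.0, limma 3.58.1), filters, thresholds, a replicate block and each library left out.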

Additional observations from a re-analysis of the deposited data

Results flagged for a closer look

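The Asn effect differed between times by the test of the difference itself for the following results. From 24 to 72 h it increased in 40 members and decreased in 1. On the log2 scale the increase was 1.81 for Psme3, 1.73 for Psmd6, 1.69 for Psmd1, 1.67 for Psma5, 1.55 for Psmb2 and 1.51 for Psma3. It was 1.26 for Psmd3, 1.24 for Psmb7, 1.23 for Psmb5, 1.13 for Psmc3ip, 0.88 for Psmg3 and 0.80 for Psmd14. Smaller increases were found for Psmd4 (0.52), Psmd5 (0.50), Psmc2 (0.49), Psmd8 (0.32) and Psmd10 (0.30), and Psmf1 decreased (-0.60). With total counts Psmd8 (0.11, adjusted p = 0.155) and Psmd10 (0.08, adjusted p = 0.540) did not pass, and with ERCC totals none of these 5 increases did. The increase of Psmd10 also did not pass without control 24 h replicate 3, Asn restriction 72 h replicate 2, control 72 h replicate 1 or control 72 h replicate 2 (0.24 to 0.28, adjusted p = 0.0521 to 0.0862).

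From 4 to 24 h the effect increased in 8 members and decreased in 11. The increase was 0.78 for Psmd1, 0.55 for Psmd5, 0.45 for Psmb2, 0.39 for Psmc2, 0.35 for Psma5 and 0.34 for Psmd3. The decrease was -0.44 for Psmd10, -0.42 for Psmg3, -0.33 for Psmd8, -0.30 for Psma3, -0.26 for Psmb7 and -0.17 for Psme3. Total counts gave 21 increases and 0 decreases. Psmd1 and Psmb2 were closer to control at 24 h than at 4 h under each scaling, whereas Psme3 (0.06 with total counts, 0.20 with ERCC totals) and Psmb7 (-0.03 and 0.12) lost their calls.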

How the results depend on the processing

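Counts are given as members higher and lower. With ERCC totals they were 0 and 16 at 4 h, 1 and 2 at 24 h and 37 and 0 at 72 h, with 0 decreases of the Asn effect from 4 to 24 h and 0 from 24 to 72 h. Within a medium ERCC totals gave 2 falls from 4 to 24 h in control and 0 under Asn restriction, 0 rises from 24 to 72 h in control, and 11 rises and 2 falls under Asn restriction. Total counts gave 1 higher at 4 h, 21 increases and 0 decreases from 4 to 24 h, 4 decreases from 24 to 72 h, and 13 rises under Asn restriction from 24 to 72 h. At least 10 counts in every library gave 5 higher at 4 h, and a threshold of 0.01 gave 4 decreases from 4 to 24 h. With at least 1.5-fold required, the counts were 1 and 7 at 4 h, 0 and 2 at 24 h, 21 and 0 at 72 h, and 1 increase and 0 decreases from 4 to 24 h. Under that limit control had 10 rises and 2 falls from 4 to 24 h and 0 rises from 24 to 72 h, and Asn restriction had 15 rises from 4 to 24 h and then 4 rises and 2 falls. Shares of all genes under that limit were not counted.

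The core minus regulatory particle difference was 0.066, -0.041 and -0.038 at 4, 24 and 72 h without the base chaperones, -0.045 at 24 h with Psmc3ip kept and -0.048 at 72 h as a difference of medians. With ERCC totals the sign changed for Psmf1 (0.10) and Psme2 (0.11) at 72 h, Psme2 (0.10) and Psmd8 (0.013) at 24 h, and, from 4 to 24 h, Psme3 (0.20), Psma3 (0.071), Psmd8 (0.050) and Psmb7 (0.12), and with total counts for Psme3 (0.060). The cause was not tested. Of 1740 values of named members, 1642 kept their call or lack of one, 811 of these in fits without a library. Where neither fit passed the sign could change, as for Psmd4 at 24 h (-0.039 to 0.057 with a library left out). With ERCC totals 64 kept theirs, 27 lost a call at the same sign, 8 changed sign and Psmc3ip gained a call at 72 h. With total counts 79 kept theirs, 11 lost a call, 9 gained a call and Psme3 changed sign. DESeq2 size factors moved the median of all genes by at most 0.063.

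Leaving out each library gave 2 to 3 and 22 to 24 members at 4 h, 2 to 3 and 32 to 35 at 24 h, and 34 to 38 and 2 at 72 h. The sample titles number the replicates without stating a pairing. Deviations of libraries with the same number had correlations of -0.052 to 0.010, which cannot settle whether the media shared a source of cells. The replicate block gave 2 and 26 at 4 h, 3 and 35 at 24 h and 36 and 2 at 72 h, and among named members ended the call of Psmf1 at 4 h (adjusted p = 0.0567). Depth limits Psmc3ip most, with as few as 53 counts in a library.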
